A study of Mus musculus with 6 samples.

Results

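The genes described here are 10 that encode, or activate, the contractile apparatus of smooth muscle cells and myofibroblasts: Acta2, Tagln, Cnn1, Myl9, Tpm1, Tpm2, Actg2, Myh11, Des and Myocd. They were chosen by symbol as a group known from muscle biology, after earlier results of these data had been seen. They make up 10 of the 17512 genes in the table. All 10 passed the filter on low counts, which left 14773 genes for testing, so no member is missing from the comparison.

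RNA-seq was carried out on primary mouse embryonic fibroblasts (pMEFs), which are mixed connective tissue cells grown out from mid-gestation embryos freed of their internal organs. The lines shared a C57bl6 strain background and were grown in DMEM with fetal bovine serum and antibiotics, with no further treatment. HAT1 is the acetyltransferase that modifies newly made histone H4 before it is built into chromatin. There were 3 lines with intact Hat1 (HAT1 WT, lines 36, 47 and 78) and 3 lines with the gene knocked out (HAT1 KO, lines 33, 41 and 72), each represented by 1 library. The labels do not say how the lines relate to embryos or litters, so the errors below describe the spread between lines. In a bulk culture, fewer cells of one type and less RNA per cell cannot be told apart.

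Smooth muscle and myofibroblasts generate force by sliding myosin II along actin filaments, and activated fibroblasts switch on part of the same gene set. Thin filaments of alpha- or gamma-actin are coated by tropomyosin, calponin and transgelin, and are pulled by a myosin made of heavy chains and regulatory light chains. Most of these genes are transcribed by serum response factor (SRF), which binds the CArG box together with the coactivator myocardin or its relatives, the MRTF proteins. Smooth muscle myosin heavy chain and myocardin are hallmarks of mature smooth muscle cells, whereas Acta2 and Tagln are also strongly used by cultured fibroblasts.

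Levels are given as TMM-scaled CPM, the counts of a gene relative to the scaled size of its library, in the order WT lines 36, 47, 78 and KO lines 33, 41, 72. The libraries held between 67720628 and 98786746 counts. Hat1 itself was measured at 17.4, 23.0 and 20.1 CPM in the WT lines and at 10.2, 10.0 and 10.3 CPM in the KO lines, a log2 fold change of -0.99 (SE 0.12, adjusted p = 0.0376 in edgeR's quasi-likelihood test). Lane and sex-linked expression were not balanced over the genotypes. Lane 6 held WT 47, KO 33 and KO 72, lane 7 held WT 78 and KO 41, and lane 8 held WT 36 alone. The 4 Y-linked genes examined had 13788 and 12841 counts in WT lines 36 and 47, 231 in WT line 78 and between 4 and 8 in the KO lines.

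The contractile genes together had a higher summed level in every HAT1 KO line than in any HAT1 WT line, but no single member passed the adjusted test. The fitted difference was positive for 8 of 10 members, with a median log2 fold change of 0.36 against 0.0085 over all tested genes. The 8 were the actins, the proteins that coat the thin filament and the myosin chains, at 1.21-fold to 1.55-fold of the WT level. The intermediate filament gene Des and the coactivator gene Myocd were the 2 with a negative difference. Des varied widely between lines of either genotype, and Myocd varied widely between the KO lines alone.

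Summed over the members, the level was 7066, 6397 and 5687 CPM in the WT lines and 8813, 8605 and 7734 CPM in the KO lines. As shares of all counts these sums were 0.698%, 0.648% and 0.570% for HAT1 WT and 0.875%, 0.859% and 0.777% for HAT1 KO. Acta2 made up the largest part of each sum, and WT line 78 had the lowest sum of the 6 lines.

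**Figure D1:**
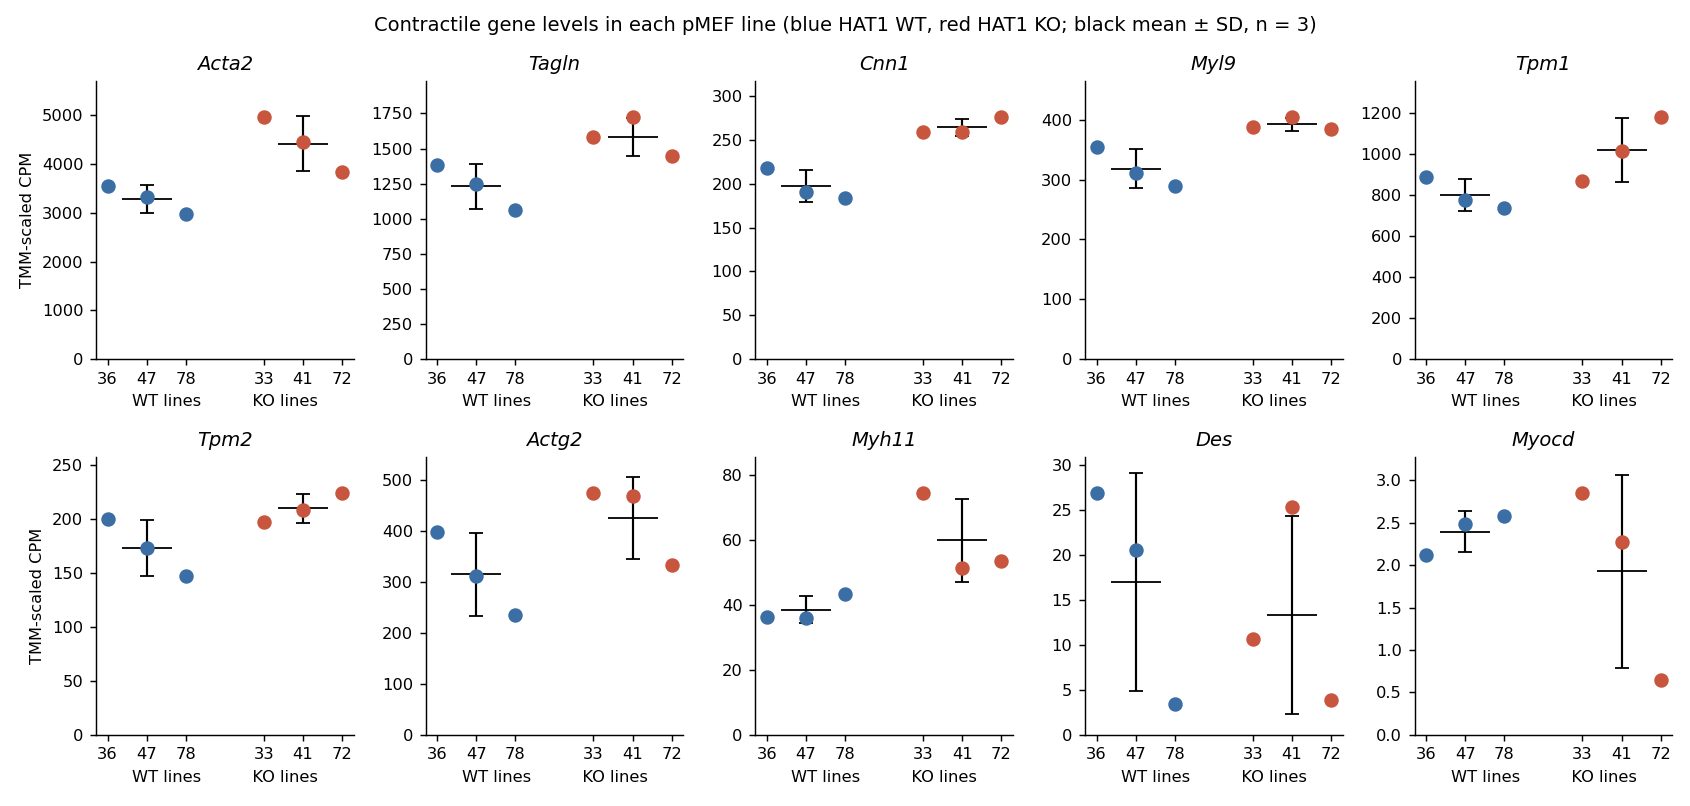
Level of each contractile gene (y axis, TMM-scaled CPM, starting at 0, with its own scale per panel) in each of the 6 pMEF lines (x axis), with HAT1 WT in blue, HAT1 KO in red and the mean ± SD over 3 lines in black. For Acta2, Tagln, Cnn1, Myl9 and Myh11 every red point lies above every blue one, while Des runs from 3.44 to 26.8 CPM with both genotypes spread over the range.

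None of the 10 members had an adjusted p-value under 0.05 in edgeR's quasi-likelihood test, where 0.00% of all tested genes were called higher and 0.528% were called lower in HAT1 KO. An unadjusted p-value under 0.05 was found for 6 of 10 members, Acta2, Tagln, Cnn1, Myl9, Tpm1 and Myh11, all of them higher in HAT1 KO. Over all tested genes this threshold was passed by 5.88% in the higher and by 8.77% in the lower direction. The same count was 3 without WT line 47 or without WT line 78, and the members at that threshold were then Cnn1, Myl9 and Myh11, while 750 of 15003 and 467 of 14992 tested genes were higher at it. With the DESeq2 Wald test 4 members passed an adjusted p-value of 0.05, where 871 of all 14773 tested genes did against 78 with edgeR, and with voom 0 members did, where 267 of all genes did. The thresholds of the study were 1.5-fold in either direction together with an unadjusted p-value under 0.05, and 1 member, Myh11, passed both as higher, against 6.11% of all tested genes. Myh11 missed both thresholds with the lane in the model, at a log2 fold change of 0.57, and with the Y-linked level in the model, at 0.38. For 5 of 10 members all 3 KO lines lay above all 3 WT lines, against 9.59% of all tested genes, and for none did they all lie below, against 12.4%.

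Short stretches of sequence show what a read can resolve among these genes. Acta2 and Actg2 encode the closely related smooth muscle alpha- and gamma-actins, in reading frames of 377 and 376 codons counted without the stop. Over 1128 aligned coding bases they differed at 183, an identity of 83.8%. The window shown is the codon-aligned stretch of 60 bases in which the 2 transcripts differ least, since a read there has the fewest bases to tell them apart. It covers coding bases 928 to 987 of Acta2 and 925 to 984 of Actg2, 5′ to 3′ on the strand of the gene, from the GENCODE M21 transcripts, with the 4 differing bases in capitals.
Acta2: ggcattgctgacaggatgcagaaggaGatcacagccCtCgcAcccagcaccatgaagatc
Actg2: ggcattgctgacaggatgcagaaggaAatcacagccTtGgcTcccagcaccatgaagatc
No exact coding stretch of 50 bases was shared between Acta2 and Actg2, and 7 of the 1082 such stretches of Acta2 also occurred in Actg1. For Tagln, Cnn1, Myl9, Tpm1, Tpm2 and Actg2, 0 such stretches were shared with the relatives compared. Of the 5965 stretches of Myh11, 26 also occurred in the nonmuscle heavy chain gene Myh9. How the counting treated reads inside a shared stretch is not given in the sources used here.

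Promoters were read from RefSeq for 6 of the 10 members, Acta2, Cnn1, Myl9, Tpm1, Tpm2 and Des, as 250 bases before and 50 after the annotated start. The promoters of Acta2 and Myl9 are shown because they hold matches to the CArG box, the site bound by SRF, which is given here by name and reads the same on both strands. Capitals mark the matches with at most 1 G or C among the 6 inner A or T bases. The Acta2 promoter is chr19:34255324-34255623 on the minus strand and the Myl9 promoter is chr2:156775214-156775513 on the plus strand of GRCm38.p6.
Acta2 promoter: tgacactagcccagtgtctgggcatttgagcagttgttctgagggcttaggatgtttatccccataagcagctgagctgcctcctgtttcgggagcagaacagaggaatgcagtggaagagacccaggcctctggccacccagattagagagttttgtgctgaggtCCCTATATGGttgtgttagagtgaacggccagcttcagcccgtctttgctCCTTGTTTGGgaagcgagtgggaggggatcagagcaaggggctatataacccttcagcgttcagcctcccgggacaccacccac
Myl9 promoter: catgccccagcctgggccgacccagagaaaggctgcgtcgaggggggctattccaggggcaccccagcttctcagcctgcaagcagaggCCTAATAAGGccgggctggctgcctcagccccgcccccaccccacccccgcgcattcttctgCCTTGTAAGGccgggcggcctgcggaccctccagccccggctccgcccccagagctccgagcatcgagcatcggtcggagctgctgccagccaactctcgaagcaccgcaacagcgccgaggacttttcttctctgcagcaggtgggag
The Acta2 window held CCCTATATGG from base -84 and CCTTGTTTGG from base -34 relative to the start, each with 1 G or C inside. The Myl9 window held the strict match CCTAATAAGG from base -161 and the looser match CCTTGTAAGG from base -99. The RefSeq starts of Acta2 and Myl9 lie inside the gene spans of GENCODE, so these positions depend on the start chosen. The strict box occurred in 1.63% and the looser form, which includes it, in 9.98% of the 32851 promoters of the same length. The windows of Cnn1, Tpm1, Tpm2 and Des held neither form. GGAATG, the core of the site bound by TEAD factors, was found on either strand in 14.7% of all promoters, and among these 6 in those of Acta2 and Tpm1. These matches describe letters in a window and do not show binding.

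Acta2 (ENSMUSG00000035783, chr19:34241090-34255590, minus strand of GRCm38) encodes smooth muscle alpha-actin, the standard marker of myofibroblasts. It was the 17th most abundant of all 17512 genes by mean CPM. Its level was 3559.5, 3327 and 2980.2 CPM in the WT lines and 4959, 4447 and 3831 CPM in the KO lines. The lowest KO line, 72, thus lay above the highest WT line, 36. The means were 3289 ± 292 and 4413 ± 565 CPM (SD, n = 3 each), a 1.34-fold difference. This was a log2 fold change of 0.42 (SE 0.13, unadjusted p = 0.0173 and adjusted p = 0.236 in edgeR's quasi-likelihood test). Within lanes the KO line exceeded the WT line by 0.58 and 0.20 on the log2 scale in lane 6, for KO 33 and KO 72, and by 0.58 in lane 7. With the lane in the model the unadjusted edgeR p-value was 0.0662.

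Actg2 (ENSMUSG00000059430, chr6:83512905-83536265, minus strand) encodes the gamma-actin of enteric smooth muscle. It was measured at 397, 312 and 235 CPM in the WT lines and at 474, 468 and 333 CPM in the KO lines. KO line 72 lay below WT line 36, so the genotypes overlapped. The fold difference was 1.35, close to that of Acta2, but the SE was larger (log2 fold change 0.43, SE 0.23, adjusted p = 0.441 in edgeR's quasi-likelihood test). WT line 36 exceeded WT line 78 by 1.69-fold within the same genotype, against 1.19-fold for Acta2.

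The 3 other actins that were tested also had positive differences. Actg1, a cytoplasmic actin of all cells, was measured at 1903, 1876 and 1500.4 CPM in the WT lines and at 2174, 2159 and 2216 CPM in the KO lines, without overlap. Its log2 fold change was 0.31 (SE 0.11, adjusted p = 0.301 in edgeR's quasi-likelihood test). Actb, the other cytoplasmic actin, had a log2 fold change of 0.24 (SE 0.12, adjusted p = 0.399 in the same test), again without overlap. Acta1, the actin of skeletal muscle, stood at 74.6 CPM in KO line 72 and between 22.8 and 35.7 CPM in the remaining lines. Actc1, the cardiac actin, did not reach 0.1 CPM in any line and was not tested.

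Tagln (ENSMUSG00000032085, chr9:45929619-45936058, minus strand) encodes transgelin, or SM22-alpha, an actin-binding protein of the calponin family. It was measured at 1384, 1245 and 1063 CPM in the WT lines and at 1579, 1722 and 1447 CPM in the KO lines. Each KO line lay above each WT line, by the narrowest margin of the non-overlapping members, 1.05-fold between KO 72 and WT 36. The means were 1231 ± 161 and 1583 ± 138 CPM (SD, n = 3 each), and the log2 fold change was 0.36 (SE 0.13, adjusted p = 0.277 in edgeR's quasi-likelihood test). In the annotation 1241 exon bases of Tagln, 62.4% of them, overlap the antisense gene Gm48529 and 108 overlap Pcsk7. Use of strand in the counting is not given in the sources used here, so reads from Tagln and these neighbours cannot be told apart.

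Cnn1 (ENSMUSG00000001349, chr9:22099216-22109630, plus strand) encodes calponin 1, which binds actin and restrains the myosin ATPase. It was measured at 218, 191 and 184 CPM in the WT lines and at 259, 259 and 276 CPM in the KO lines. The lowest KO line exceeded the highest WT line by 1.19-fold, the widest gap of the members beside Myh11 at 1.18-fold. The means were 198 ± 18.3 and 265 ± 9.78 CPM (SD, n = 3 each), and the log2 fold change was 0.42 (SE 0.09). Cnn1 had the smallest p-value of the members, unadjusted 0.00232 and adjusted 0.115 in edgeR's quasi-likelihood test. The within-lane differences were close to each other, at 0.44 and 0.53 in lane 6 and 0.50 in lane 7 on the log2 scale. Leaving out any 1 line kept the log2 fold change between 0.38 and 0.50.

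Tpm1 (ENSMUSG00000032366, chr9:67022590-67049406, minus strand) and Tpm2 (ENSMUSG00000028464, chr4:43514711-43523765, minus strand) encode alpha- and beta-tropomyosin, coiled coils that run along the actin filament. Tpm1 was measured at 889, 779 and 739 CPM in the WT lines and at 869, 1017 and 1180.2 CPM in the KO lines. Only KO line 33 lay within the WT range. The log2 fold change of Tpm1 was 0.35 (SE 0.14, adjusted p = 0.320 in edgeR's quasi-likelihood test). Tpm2 was measured at 199.5, 173 and 148 CPM in the WT lines and at 197, 208 and 224 CPM in the KO lines. Here too KO line 33 lay just below WT line 36 and the other KO lines lay above it. The log2 fold change of Tpm2 was 0.28 (SE 0.12, adjusted p = 0.368 in the same test). The order of the KO lines for both tropomyosins, lowest in 33 and highest in 72, was the opposite of their order for Acta2.

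Among the further tropomyosins, calponins and transgelins, all 6 had positive differences and 2 had an unadjusted p-value under 0.05. Tagln2 was measured at 276, 290.2 and 249 CPM in the WT lines and at 373, 331 and 319 CPM in the KO lines. Cnn2 was measured at 616, 612 and 531 CPM in the WT lines and at 688, 728 and 733 CPM in the KO lines. Neither gene overlapped between the genotypes. Both are broadly expressed relatives of Tagln and Cnn1, with log2 fold changes of 0.33 (SE 0.09) and 0.29 (SE 0.09) and adjusted p-values of 0.212 and 0.225 in edgeR's quasi-likelihood test. The median log2 fold change of the list was 0.11.

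Myl9 (ENSMUSG00000067818, chr2:156775420-156781658, plus strand) encodes the regulatory light chain whose phosphorylation switches smooth muscle myosin on. It was measured at 354, 312 and 289 CPM in the WT lines and at 387, 404 and 385 CPM in the KO lines. The KO lines lay close to each other and above every WT line. The means were 318 ± 32.9 and 392 ± 10.4 CPM (SD, n = 3 each), and the log2 fold change was 0.30 (SE 0.09, adjusted p = 0.227 in edgeR's quasi-likelihood test). Myl9 was also higher in the KO line in each within-lane comparison, by 0.31 and 0.30 in lane 6 and 0.48 in lane 7 on the log2 scale.

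Myh11 (ENSMUSG00000018830, chr16:14194535-14291372, minus strand) encodes the smooth muscle myosin heavy chain and had the largest fitted difference of the members. It was measured at 36.3, 36.1 and 43.5 CPM in the WT lines and at 74.6, 51.6 and 53.7 CPM in the KO lines. All KO lines lay above the WT lines, and KO line 33 stood well above the other two. The means were 38.6 ± 4.23 and 60.0 ± 12.7 CPM (SD, n = 3 each), a 1.55-fold difference. In the fit this was a log2 fold change of 0.63 (SE 0.16, unadjusted p = 0.00749 and adjusted p = 0.183 in edgeR's quasi-likelihood test). Without KO line 33 the log2 fold change was 0.45, which is under the threshold of 1.5-fold. Myh11 was the only member whose lowest line was WT 47, and the difference within lane 7 was 0.24 against 1.05 and 0.57 in lane 6.

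The further chains of myosin II did not share one direction. Of 7 tested, 5 had positive and 2 negative differences, and the gene with an unadjusted p-value under 0.05 was lower in HAT1 KO. This was Myl12b, a regulatory light chain related to Myl9, measured at 35.8, 32.5 and 31.8 CPM in the WT lines and at 28.7, 27.0 and 26.8 CPM in the KO lines. Its log2 fold change was -0.28 (SE 0.08, adjusted p = 0.201 in edgeR's quasi-likelihood test). Its neighbour in the family, Myl12a, had a log2 fold change of 0.24 (SE 0.13, adjusted p = 0.453 in the same test), with overlapping lines. Among 8 genes that control phosphorylation of the light chain, only Ppp1cb, the catalytic subunit of myosin phosphatase, had an unadjusted p-value under 0.05 (log2 fold change 0.19, SE 0.06, adjusted p = 0.266 in edgeR's quasi-likelihood test).

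Des (ENSMUSG00000026208, chr1:75360329-75368579, plus strand) encodes desmin, the intermediate filament of muscle cells. It was measured at 26.8, 20.5 and 3.44 CPM in the WT lines and at 10.7, 25.3 and 3.91 CPM in the KO lines. The highest line exceeded the lowest by 7.81-fold, and both of these were WT lines. The genotypes overlapped, with means of 16.9 ± 12.1 and 13.3 ± 10.9 CPM (SD, n = 3 each). The log2 fold change was -0.35 (SE 0.88, adjusted p = 0.888 in edgeR's quasi-likelihood test), and it became 0.15 without WT line 36 and 0.10 without KO line 72. The within-lane values were -0.94 and -2.39 in lane 6 and 2.88 in lane 7, so they did not agree in sign. In the annotation 220 exon bases of Des, 5.86% of them, overlap the antisense gene Gm15179.

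Myocd (ENSMUSG00000020542, chr11:65176561-65269989, minus strand) encodes myocardin, the SRF coactivator that drives the smooth muscle programme. It had the lowest level of the members in each line, at 2.12, 2.48 and 2.58 CPM in the WT lines and 2.85, 2.28 and 0.648 CPM in the KO lines. These levels rest on 160, 200 and 255 counts for HAT1 WT and on 254, 154 and 50 counts for HAT1 KO. KO lines 33 and 41 were close to the WT lines and KO line 72 lay far below them. The log2 fold change was -0.31 (SE 0.51, adjusted p = 0.819 in edgeR's quasi-likelihood test), and it was 0.11 without KO line 72. In KO line 72 Tpm1, Tpm2 and Cnn1 were at their highest of all lines, while Myocd was at its lowest.

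**Figure D2:**
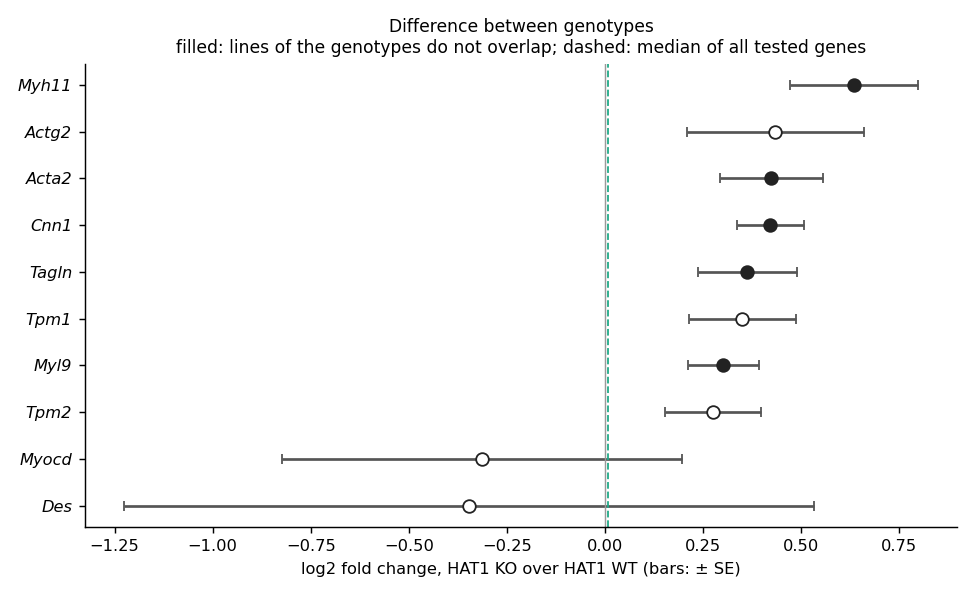
Log2 fold change of HAT1 KO over HAT1 WT (x axis, bars ± SE from the edgeR fit of 3 lines against 3) for each contractile gene (y axis), with filled points where the lines of the genotypes did not overlap and a dashed line at the median of all tested genes. Values run from 0.63 for Myh11 to -0.35 for Des, and the bars of Des and Myocd cross 0.

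To compare levels between genes, CPM were divided by the length of the merged exons in kilobases (RPKM), which assumes that every annotated exon is used. In WT lines the order was Acta2 at 1498 ± 133, Tagln at 619 ± 80.8 and Myl9 at 274 ± 28.3 RPKM (SD, n = 3). Actg2 at 202 ± 52.2, Tpm1 at 124 ± 12.0, Cnn1 at 72.2 ± 6.68 and Tpm2 at 59.6 ± 8.94 RPKM followed. Myh11 at 5.08 ± 0.556, Des at 4.51 ± 3.22 and Myocd at 0.373 ± 0.0375 RPKM came last. In HAT1 KO lines the order was the same, from 2009 ± 257 RPKM for Acta2 to 0.300 ± 0.178 RPKM for Myocd. Over all 6 lines the ranges of Myl9 and Actg2, of Actg2 and Tpm1, of Cnn1 and Tpm2 and of Myh11 and Des overlapped. Within each single line Myl9 was above Actg2, Actg2 above Tpm1 and Cnn1 above Tpm2, whereas Des was above Myh11 in WT lines 36 and 47 and below it in the others. Actin and transgelin were thus abundant in both genotypes, while the mature smooth muscle markers Myh11 and Myocd were low in both.

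**Figure D3:**
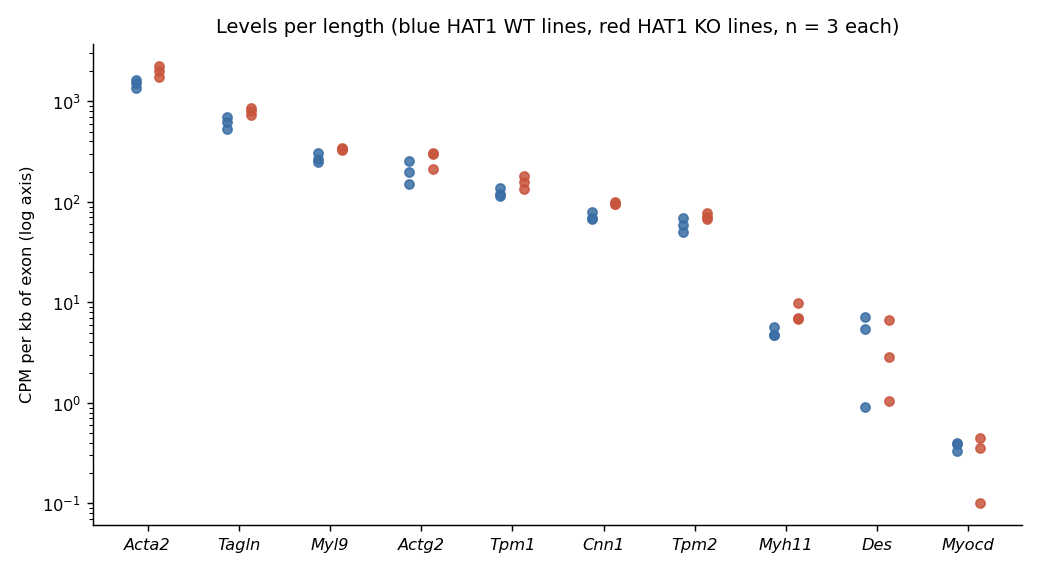
Level per length (y axis, CPM per kilobase of exon, log axis) of each contractile gene (x axis) in the 3 HAT1 WT lines (blue) and the 3 HAT1 KO lines (red), each point 1 line. The genes span from 2258 RPKM for Acta2 in KO line 33 to 0.101 RPKM for Myocd in KO line 72, while the genotypes of a single gene lie close together or overlap.

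The pattern over lines was not the same for each member. WT line 78 was the lowest of the 6 lines for Acta2, Tagln, Cnn1, Myl9, Tpm1, Tpm2, Actg2 and Des, 8 of 10 members. This line carried few Y-linked counts, like the KO lines, and its Acta2 level was 67.5% of the KO mean, against 80.7% in WT line 36 and 75.4% in WT line 47. With the Y-linked level as a covariate the fitted log2 differences were 0.63 for Acta2, 0.57 for Cnn1, 0.50 for Myl9 and 0.67 for Tagln, and 0.38 for Myh11. WT line 36, sequenced alone in lane 8, was the highest WT line for the 8 members that were lowest in WT line 78. KO line 33 was the highest of all lines for Acta2, Actg2, Myh11 and Myocd, KO line 41 for Tagln and Myl9, and KO line 72 for Cnn1, Tpm1 and Tpm2.

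**Figure D4:**
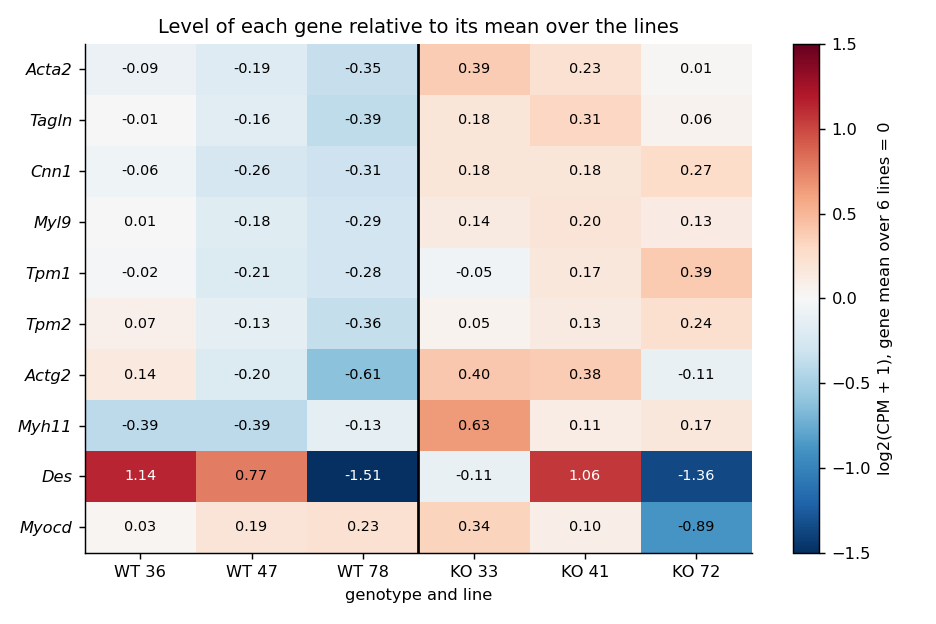
Level of each contractile gene (rows) in each line (columns) as log2(CPM + 1) minus the mean of that gene over the 6 lines, in blue below and in red above 0, with the HAT1 WT lines left of the black line. WT 78 is the bluest column for the actins, transgelin and tropomyosins, and the row of Des, from -1.51 to 1.14, follows the lines and not the genotypes.

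The gene most like the group over the 6 lines was Smtn, which encodes smoothelin, a protein of the contractile filaments of smooth muscle. Likeness was the Pearson correlation with the mean of the 10 members, each as log2(CPM + 1) centred on its own mean, over 12342 other genes with a mean of at least 1 CPM. Smtn reached 0.991, followed by Eef1b2 at 0.989, Mta1 at 0.985, Rpap1 at 0.983 and C1qtnf12 at 0.983. Smtn was measured at 53.9, 51.6 and 39.0 CPM in the WT lines and at 62.1, 64.9 and 47.9 CPM in the KO lines, so its genotypes overlapped. The genes with the most opposite pattern were Abi3bp at -0.990, Pid1 at -0.987 and Glrx at -0.978. With only 6 libraries, which differ in depth and lane, such values are descriptions, and Des, with the widest range, weighs most in the mean. When each member was instead scaled to the same spread, a choice made after the values were seen, Lsp1 at 0.995 and Cd47 at -0.995 came first.

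The remaining parts of the contractile apparatus were examined through 5 lists of 37 genes: other actins, other tropomyosins and relatives, myosin II chains, control of myosin phosphorylation, and proteins of thin filaments and dense bodies. Of 36 tested, 29 had a positive and 7 a negative difference, with a median log2 fold change of 0.16, where 51.5% of all tested genes were positive. With an unadjusted p-value under 0.05, 5 were higher and 1 was lower, so 13.9% were higher against 5.88% of all tested genes. None of them passed an adjusted p-value of 0.05 in edgeR's quasi-likelihood test or with voom, while 4, all higher, did in the DESeq2 Wald test. Among thin filament and dense body proteins 10 of 12 had positive differences. Pdlim7, a LIM protein of actin bundles, was measured at 123, 111 and 111 CPM in the WT lines and at 150.2, 133 and 138 CPM in the KO lines (log2 fold change 0.29, SE 0.08, adjusted p = 0.193 in edgeR's quasi-likelihood test). The actin crosslinkers Flna and Actn1 did not overlap between the genotypes either, at 0.24 and 0.29 on the log2 scale, with unadjusted p-values of 0.0593 and 0.0697 in the edgeR test.

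The regulators above these genes had no shared direction. Of 13 SRF cofactors and upstream regulators, 7 had positive and 6 negative differences, with a median log2 fold change of 0.0037. Srf itself was measured at 91.8, 97.2 and 96.3 CPM in the WT lines and at 114, 97.3 and 112 CPM in the KO lines (log2 fold change 0.18, SE 0.08, adjusted p = 0.365 in edgeR's quasi-likelihood test). KO line 41 was level with the WT lines, although the genotypes did not overlap. The receptor gene Tgfbr2, through which TGF-beta induces myofibroblasts, was the one regulator with an unadjusted p-value under 0.05 in the edgeR test. It was lower in HAT1 KO. At the same threshold 2 regulators were lower with DESeq2 and 3 with voom, and 0 were higher with either. Tgfbr2 was measured at 321, 311 and 327 CPM in the WT lines and at 254, 292 and 214 CPM in the KO lines (log2 fold change -0.34, SE 0.12, adjusted p = 0.289 in edgeR's quasi-likelihood test). The ligand gene Tgfb1 had a log2 fold change of -0.32 (SE 0.13, adjusted p = 0.341 in the same test), with overlapping lines. Another receptor gene, Tgfbr1, had a log2 fold change of -0.32 (SE 0.16, adjusted p = 0.433 in the same test), without overlap.

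Of 10 target genes of SRF and YAP outside the contractile set, 7 had positive differences and 1, the immediate early gene Fos, had an unadjusted p-value under 0.05. Fos was measured at 41.9, 45.4 and 80.1 CPM in the WT lines and at 29.7, 27.7 and 39.0 CPM in the KO lines. Its log2 fold change was -0.80 (SE 0.28, adjusted p = 0.278 in edgeR's quasi-likelihood test), opposite in sign to the contractile genes. Fhl1, a LIM protein gene, was highest in KO line 72 at 384 CPM, against 149 to 269 CPM in the other lines.

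**Figure D5:**
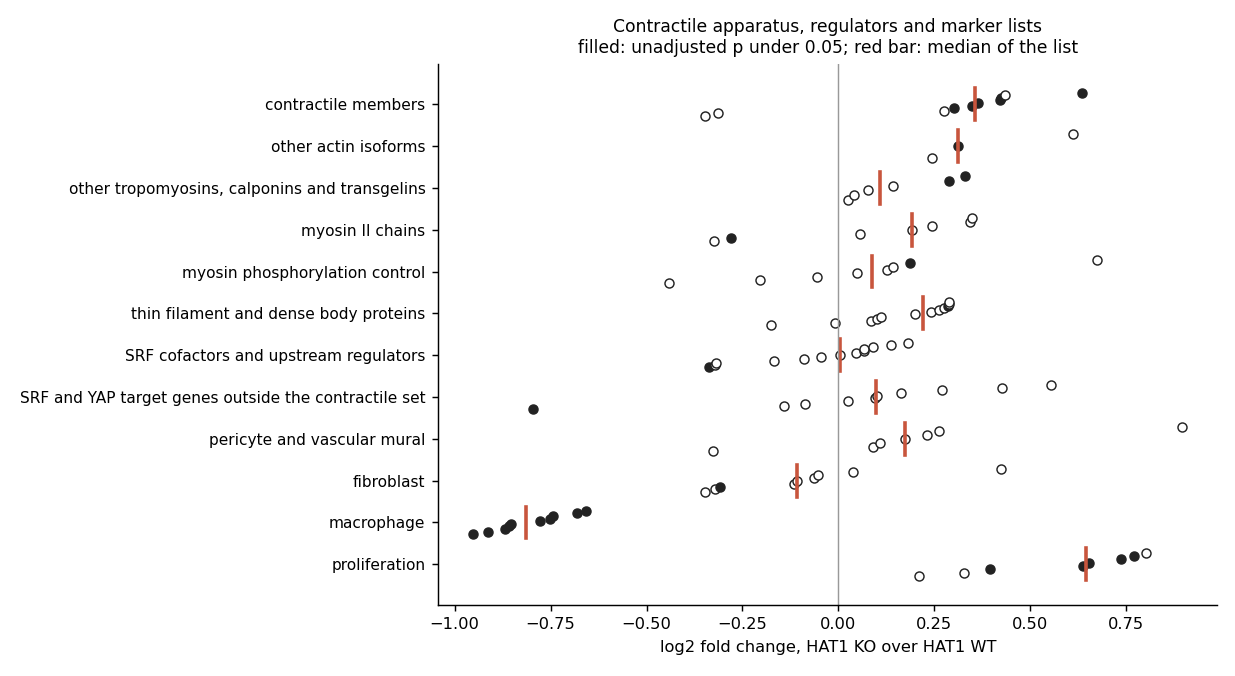
Log2 fold change of HAT1 KO over HAT1 WT (x axis) for each tested gene of the contractile set, of its further components and regulators, and of cell type and proliferation markers (y axis), with filled points at an unadjusted p-value under 0.05 and a red bar at the median of each list. The contractile set has a median of 0.36 and the macrophage list one of -0.82, while the regulators are centred near 0.

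Markers of the cells that such cultures can hold were compared beside the contractile genes. Fibroblast markers were abundant in every line, at a summed level of 60456 to 68235 CPM in the WT lines and 45775 to 77685 CPM in the KO lines, and 1 of 9, Thy1, had an unadjusted p-value under 0.05, lower in HAT1 KO. Of 18 striated muscle markers 9 were not among the genes analysed, including Myod1 and Myog, and the others summed to between 4.16 and 7.80 CPM in any line. Of 7 pericyte and mural cell markers 0 had an unadjusted p-value under 0.05 with edgeR, DESeq2 or voom, and their sums, 923 to 1067 CPM in the WT lines and 968 to 1397 CPM in the KO lines, overlapped. Epithelial markers summed to at most 2.43 CPM. Endothelial markers had negative differences for 4 of 5 tested, and 2, Pecam1 and Cdh5, had an unadjusted p-value under 0.05. Pecam1 did not exceed 0.646 CPM and Cdh5 did not exceed 0.742 CPM in any line. The sums of the endothelial list did not overlap, at 147 to 190.0 CPM in the WT lines and 43.2 to 142 CPM in the KO lines. Flt1 made up most of each sum. It was measured at 135, 144 and 177 CPM in the WT lines and at 129, 130 and 33.9 CPM in the KO lines. Its unadjusted p-value was 0.228 in edgeR's quasi-likelihood test.

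Macrophage markers separated the genotypes, and proliferation markers did so in part. All 10 macrophage markers had an unadjusted p-value under 0.05 and were lower in HAT1 KO, and 7 passed an adjusted p-value of 0.05 in edgeR's quasi-likelihood test (Ptprc, Cd53, Csf1r, Adgre1, Itgam, Tyrobp and Fcer1g). The summed level of the list was 2250.2 to 2465 CPM in the WT lines and 1214 to 1469 CPM in the KO lines. Of 8 proliferation markers 5 had an unadjusted p-value under 0.05, all higher in HAT1 KO and led by the replication genes Mcm5 and Top2a, but none passed the adjusted threshold with edgeR or voom and 2 did with DESeq2. The sums of this list overlapped, at 421 to 625 CPM in the WT lines and 594 to 846 CPM in the KO lines. The part of cell composition, endothelial and macrophage markers included, and of proliferation in the contractile differences was not tested.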

How the data were processed

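RNA-seq of 6 pMEF lines was analysed from a single deposited table. The authors deposited raw read counts per gene for each library, with no normalization. The same table held the authors' own comparison, as a log2 fold change, a log2 mean CPM, an F score, a p-value and a q-value per gene as deposited, and none of these was used. The submitters' processing notes name edgeR and the mm10 build, while the aligner, the counter, the annotation and the use of strand are not given in the sources used here. Low counts were even numbers more often than high counts, so halved counts were one of the alternatives. For 24 genes a symbol that had become a date was restored from its identifier. Positions and exon lengths are from GENCODE M21 and promoters from RefSeq, both on GRCm38.

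Groups were taken from the genotype in the labels. The test was that of edgeR 4.0.16 under R 4.3.3 (filterByExpr with default settings, TMM factors between 0.988 and 1.01, glmQLFit and glmQLFTest with genotype alone, two-sided). The Benjamini-Hochberg adjustment ran over all 14773 tested genes. The common dispersion was 0.0747, so at this depth the spread between lines, more than counting error, limits the precision, also for the 50 counts of Myocd in KO line 72. The standard error is the size of the log2 fold change divided by the square root of F. An exact permutation test of 3 lines against 3 cannot give a p-value under 0.1, which Acta2, Tagln, Cnn1, Myl9 and Myh11 reached. The script was tested on simulated data. Alternatives were DESeq2 1.42.0, voom from limma 3.58.1, other scalings and filters, lane or Y-linked level as a covariate, and leaving out each line.

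The members and all lists were chosen with earlier results of these data known. Named genes were the 10 members, Hat1, and the 5 most and 3 least like genes over the lines. Most further lists added those past the adjusted threshold or up to 4 with the smallest p-values. The striated muscle, pericyte, epithelial and Y-linked lists added none in this way. Actc1, Mylk, Ppp1r12b, Rock2, Abcc9, Kcnj8, Rgs5, the genes most like Des, Pax3, Lsp1 and Cd47 fall outside this rule. They were named after their values were seen. Myod1 and Myog fall outside it too and were named because they were not among the genes analysed.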

Additional observations from a re-analysis of the deposited data

How the results depend on the processing

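The fitted difference kept its sign under each alternative run for Acta2, Tagln, Cnn1, Myl9, Tpm1, Tpm2, Actg2 and Myh11. Of the values of single members under alternatives, 141 kept their direction and their side of the adjusted threshold, 4 passed it and 5 changed sign. In the DESeq2 Wald test 4 members passed against 0 with edgeR, with adjusted p-values of 0.0268 for Acta2 (0.0268 to 0.776 over its alternatives), 0.000564 for Cnn1 (0.000564 to 0.569), 0.0125 for Myh11 (0.0125 to 0.776) and 0.0414 for Myl9 (0.0414 to 0.679). The log2 fold change of Des became 0.020 with the lane and 2.77 with the Y-linked level in the model, and ran from -1.20 to 0.15 when a line was left out, with 0.15 without WT 36 and 0.10 without KO 72. That of Myocd ran from -0.71 to 0.11, with 0.11 without KO 72. Members past the thresholds of the study numbered 1, but 0 with the lane in the model. They numbered 4 with the Y-linked level in the model (Acta2, Tagln, Tpm2 and Actg2, not Myh11), a fit that leans on WT line 78. When a line was left out they numbered 0 to 2, with 0 without KO 33 and 2 without WT 36 or without KO 72. The share of all tested genes past both thresholds was taken in the main fit alone, so these counts have no background beside them. Members higher at an unadjusted p-value under 0.05 numbered 6, 4 with the lane in the model (1.39% of all genes) and 3 to 8 when a line was left out (3.02% to 9.06% of all genes), with 3 without WT 47 or WT 78. Members without overlap numbered 5, and 6 with DESeq2's median-ratio scaling of all lines. They numbered 6 to 8 with fewer lines, where non-overlap is easier to reach. The share of all tested genes without overlap was likewise taken in the main fit alone. The median log2 fold change was 0.59 with the Y-linked level in the model and 0.27 to 0.45 when a line was left out. For the other changes the cause was not tested. Over all genes 78 passed the adjusted threshold with edgeR, 871 with DESeq2, 267 with voom, 2 with the lane, 0 with the Y-linked level, and 0 to 73 when a line was left out. No paired analysis was possible because the genotypes share no replicate numbers, and the fit with the lane as a term is the only blocked fit that was run.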

Other observations

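The genes whose levels over the lines were most like those of Des were looked for after the values of Des were seen, among 764 genes with at least a 4-fold range, and were Barx1, Efcab2, LOC115487691, Lhx6, Mcoln3 and Ppp1r3e. Barx1, a homeobox gene of the embryonic face and stomach, was measured at 4.19, 3.33 and 0.121 CPM in WT lines 36, 47 and 78 and at 0.876, 4.70 and 0.104 CPM in KO lines 33, 41 and 72. Lhx6, a LIM homeobox gene, was measured at 3.99, 2.62 and 0.728 CPM in the WT lines and at 1.07, 3.96 and 0.363 CPM in the KO lines. Efcab2 was measured at 1.60, 1.66 and 0.263 CPM in WT and at 0.651, 1.66 and 0.169 CPM in KO, and Mcoln3 at 11.3, 9.66 and 0.202 CPM in WT and 0.730, 8.94 and 0.130 CPM in KO. These 4 genes were high in WT 36, WT 47 and KO 41 and low in WT 78, KO 33 and KO 72, while Des was high and low in the same lines except for an intermediate 10.7 CPM in KO 33. Pax3, a gene of the dermomyotome and neural crest that is also one of the striated muscle markers, was further down this ranking and was picked because it is on that list, at 2.61, 1.24 and 0.182 CPM in WT and 0.0898, 3.25 and 0.0778 CPM in KO. The split did not follow genotype, and it was described but not tested.

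KO line 72 also differed from the other lines in genes around the contractile set. Mylk, the kinase that phosphorylates myosin light chain, stood at 32.2 CPM there and between 70.6 and 132 CPM elsewhere. Abcc9, a potassium channel subunit of pericytes, stood at 0.0519 CPM in that line and between 2.29 and 7.97 CPM elsewhere. The lists that hold Mylk and Abcc9 did not share a direction there. Kcnj8 and Ppp1r12b were also at their lowest of all lines in KO line 72. Rgs5, at 4.45 CPM, and Rock2, at 422 CPM, were at their highest in it.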
